A study of Mus musculus with 9 samples.

Results

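The nuclear genes for the subunits of the oxidative phosphorylation complexes were examined in mouse CD4 T cells, on Affymetrix whole-genome arrays. Members were chosen by name, as the genes whose single symbol in the platform annotation begins with Nduf and a subunit letter, Sdh, Uqcr, Cox4 to Cox8 or Atp5. The rule took 81 of the 18193 genes with a single-symbol probe set, of which 35 belong to complex I, 4 to complex II, 8 to complex III, 17 to complex IV and 17 to complex V. Of these members, 48 had several probe sets and 33 had 1. The probe set with the highest mean over the 9 arrays stood for each gene. Cross-hybridising probe sets (_x_at) were passed over wherever a gene had another, even if they read higher. Another 9 probe sets name a subunit beside another gene, so subunits seen only by those (Ndufa11 and Ndufs6) were not counted. Ndufa4 is counted in complex I by its name, although it is known as a complex IV subunit.

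There were 3 groups of 3 arrays, called biological replicates by the series' design text. Nothing says whether they came from separate animals, so the p-values measure the spread between these samples. The induced regulatory T cells (iTreg) came from spleen CD4+ cells of Foxp3EGFP mice (C57BL/6 background, a green reporter of the regulatory T cell factor Foxp3) that were sorted as EGFP-negative. Culture lasted 72 hours with IL2 at 100 U/ml, antibody to CD28 at 1 µg/ml and plates coated with antibody to CD3 at 2.5 µg/ml. In the group purTGFβ_iTreg, TGFβ1 was added as the purified protein at 5 ng/ml. In the group pltTGFβ_iTreg, it came from freeze-thawed platelets of wild type C57BL/6 mice. The third group, Tconv (conventional CD4 T cells), has no settled treatment, because a note common to all 9 samples has Tconv cells receiving TGFβ1. The labels do not say that iTreg were sorted after culture.

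Oxidative phosphorylation is the last stage of respiration in the inner mitochondrial membrane. Complex I takes electrons from NADH and complex II from succinate, complex III passes them from ubiquinone to cytochrome c, and complex IV hands them to oxygen. Complexes I, III and IV pump protons, and complex V, the ATP synthase, makes ATP from the returning flow. Activated T cells raise glycolysis strongly, while regulatory T cells are known for relying more on mitochondrial respiration. Most subunits are encoded in the nucleus, as all 81 genes here are, and the rest in mitochondrial DNA.

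Array-to-array correlations were 0.994 to 0.998 within groups, 0.993 to 0.995 between the iTreg groups and 0.956 to 0.970 between either of them and Tconv. Pan T cell markers (9 of 10 measured) had array means of 10.37 to 10.75 on the log2 scale. By the cutoffs given in the next paragraph, 3 of them were lower with purified TGFβ (Cd5 -0.84, Cd4 -0.72 and Cd247 -0.65). With platelet TGFβ 2 were lower (Cd5 -0.59 and Cd4 -0.62) and 2 higher (Cd28 0.78 and Cd2 0.52). Some markers of other cells also differed from Tconv by those cutoffs. Those of platelets (9 of 9 measured) averaged 4.48 to 4.67 on Tconv and 4.14 to 4.29 on iTreg arrays, with 1 called lower with purified and 2 with platelet TGFβ. B cell markers (7 of 8) averaged 5.29 to 5.33 and 4.90 to 5.15, where Cd79b fell by 1.46 and 1.65 and Ighm rose by 0.82 and 0.65. Markers of CD8 or NK cells (6 of 7) averaged 6.15 to 6.21 and 6.19 to 6.41. Among them Cd8b1 fell by 0.98 and 1.04, Klrd1 rose by 3.17 and 1.90, and Eomes fell by 1.31 with purified TGFβ alone. Erythroid (4 of 7) and myeloid (9 of 9) markers read 3.33 to 3.57 and 3.77 to 3.99 on Tconv and 3.08 to 3.27 and 3.56 to 3.74 on iTreg arrays, with no calls. The part of other cells in the subunit values was not tested. Xist, which marks female cells, read 10.63 to 10.94 in Tconv and 3.37 to 3.99 in all iTreg arrays, and Y-linked Eif2s3y read 2.59 to 2.82 and 8.82 to 9.18. The sex of the animals therefore cannot be told apart from either comparison with Tconv. Of the members, Ndufa1 and Ndufb11 lie on the X chromosome. Ndufa1 changed by 0.18 with purified TGFβ and -0.02 with platelet TGFβ, and Ndufb11 by -0.14 and -0.25, and none of these was called.

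The first comparison asked how cells cultured with purified TGFβ differ from Tconv in these subunits. A gene was called at an adjusted p under 0.1 (limma, Benjamini-Hochberg over all probe sets) with an absolute log2 change above 0.5, about 1.4-fold, the cutoffs of the authors. Of the 81 members, 15 were lower in purTGFβ_iTreg, 3 were higher and 63 were not called. Calls covered 22.2% of the members, against 29.3% of all genes and 40.5% of the genes above the dimmest 40% of probe sets, where 79 of the members lie. Falls covered 14.9% and rises 14.5% of all genes, so the members' calls were split toward lower and the calls of all genes were not. Whether these shares differ was not tested. Under quantile normalization of the deposited values the split was 1 higher to 16 lower, and that of all genes also moved, from 49.3% to 38.6% higher. With platelet TGFβ, described next, that normalization gave 3 higher and 21 lower.

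Against Tconv, pltTGFβ_iTreg gave 16 members lower, 3 higher and 62 not called. That is 23.5% of the members, against 28.5% of all genes (14.7% lower and 13.9% higher) and 39.5% of the brighter genes. Both comparisons use the same Tconv arrays, so they are not independent of each other. The members called lower in both were Ndufa7, Ndufb8, Ndufb9, Ndufs8, Ndufv1, Sdhc, Uqcr10, Uqcrc1, Uqcrq, Cox6a2, Cox6b2 and Atp5g2, which are 12 genes spread over every complex. Complex IV was among them only through Cox6a2 and Cox6b2, whose probe sets read low, at 5.70 and 4.82 on average. Those higher in both were Ndufb1, Ndufs1 and Cox7c. Ndufa12, Ndufb6 and Ndufs7 were called lower with purified TGFβ alone, and Ndufa9, Ndufb2, Cox7a2l and Cox8a with platelet TGFβ alone. Several of these lay near the cutoff: Ndufa12 changed by -0.53 and -0.50, Ndufb6 by -0.52 and -0.50 and Ndufa9 by -0.47 and -0.54 with purified and platelet TGFβ. Another bright probe set was called lower in both comparisons for Ndufb6 (-0.70 and -0.68) and for Ndufs7 (-0.60 and -0.56).

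The shift of most members was small. The median log2 change of the 81 members was -0.21 with purified TGFβ and -0.25 with platelet TGFβ, and that of all genes was -0.17 and -0.16. The members' median thus lay 0.04 and 0.09 below that of all genes. Their median absolute change was 0.25 and 0.34, against 0.31 and 0.30 for all genes and 0.42 and 0.40 for the brighter genes. At an adjusted p under 0.05 with no fold cutoff, 39 members were lower and 7 higher with purified TGFβ, where 35.4% and 19.5% of all genes were. With platelet TGFβ 46 were lower and 6 higher, where 33.4% and 18.9% of all genes were. At that p with an absolute log2 change above 1, 2 members fell and 0 rose with purified TGFβ (3.39% and 7.78% of all genes), and 0 fell and 1 rose with platelet TGFβ (3.07% and 7.04%). All 3 iTreg arrays read below all 3 Tconv arrays for 50 members with purified TGFβ (41.6% of all genes) and for 58 with platelet TGFβ (38.4%).

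**Figure D1:**
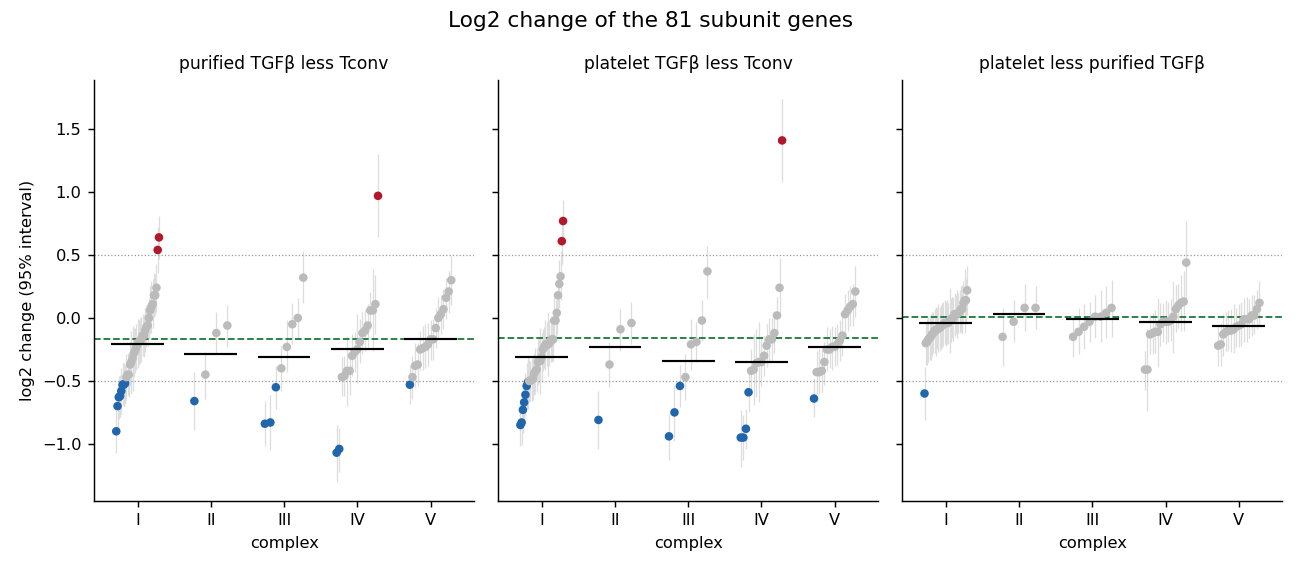
Log2 change of each of the 81 subunit genes in the 3 comparisons, by complex (points; grey lines are 95% intervals). Blue and red points were called lower and higher, black bars are the complex's median, the green dashed line is the median of all 18193 genes and the dotted lines mark a log2 change of 0.5; calls lie in complexes I to V against Tconv and only Ndufb2 is coloured between the iTreg groups.

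By complex, the calls with purified TGFβ were 2 higher and 8 lower of 35 in complex I, 0 and 1 of 4 in complex II, 0 and 3 of 8 in complex III, 1 and 2 of 17 in complex IV, and 0 and 1 of 17 in complex V. With platelet TGFβ they were 2 and 7, 0 and 1, 0 and 3, 1 and 4, and 0 and 1. All complex IV calls with purified TGFβ lay on low-reading probe sets (Cox6a2 5.70, Cox6b2 4.82 and Cox7c 5.64 on average). With platelet TGFβ the brighter Cox7a2l (10.88) and Cox8a (11.75) were called as well. Complex III had the lowest median change with purified TGFβ (-0.31) and complex V the highest (-0.17, the same as all genes), with complex I at -0.21, complex IV at -0.25 and complex II at -0.29. With platelet TGFβ the medians were -0.35 for complex IV, -0.34 for complex III, -0.31 for complex I and -0.23 for complexes II and V. Differences between complexes were not tested. The order changes with the settings: averaging a gene's probe sets put complex II at -0.38 and complex V at -0.08 with purified TGFβ.

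Mean levels per array, taken as the deviation of each gene from its own mean over the 9 arrays, show the same on the level of samples. Over all members they were 0.139, 0.163 and 0.173 in Tconv, -0.059, -0.077 and -0.039 in purTGFβ_iTreg and -0.092, -0.078 and -0.131 in pltTGFβ_iTreg. Every Tconv array lay above every iTreg array, and the iTreg groups nearly met at -0.077 and -0.078. All genes together were separated from Tconv too, at 0.032 to 0.039 in Tconv, -0.032 to -0.005 with purified and -0.030 to -0.003 with platelet TGFβ. Over the genes above the dimmest 40% the groups overlapped, at -0.013 to 0.022, -0.008 to 0.008 and -0.032 to 0.005. In complex V the Tconv arrays read 0.098 to 0.127, those with purified TGFβ -0.039 to -0.010 and those with platelet TGFβ -0.097 to -0.071. In complex III, Tconv read 0.180 to 0.261, and the iTreg groups overlapped at -0.114 to -0.080 and -0.175 to -0.095.

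**Figure D2:**
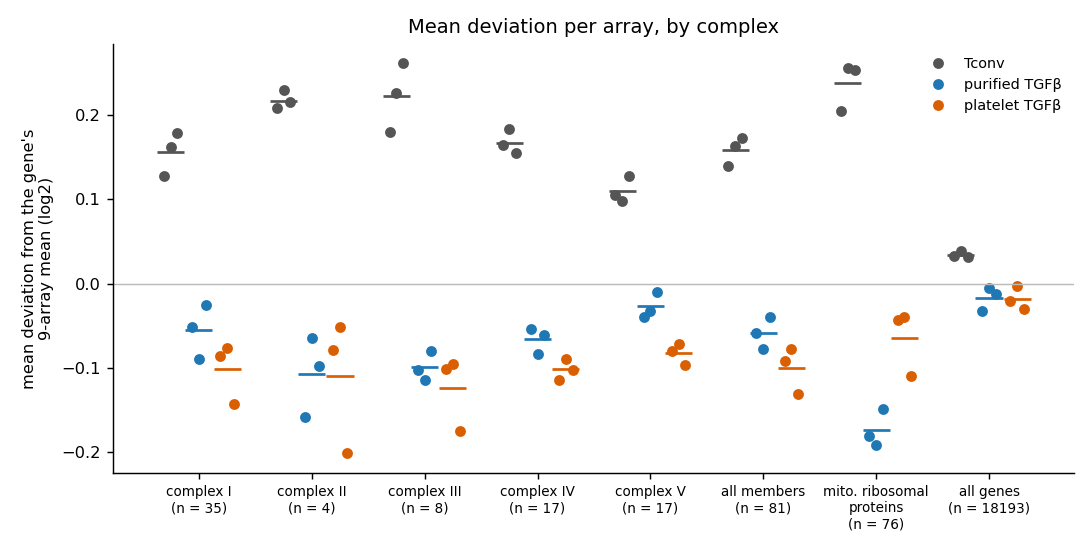
Mean deviation of each array from the genes' own 9-array means on the log2 scale, for the 5 complexes, all 81 members, 76 mitochondrial ribosomal proteins and all genes (points are arrays, bars are group means). Tconv arrays lie above 0 and iTreg arrays below 0 in every subunit column. The same holds for all genes, with Tconv arrays at 0.032 to 0.039 and iTreg arrays at -0.032 to -0.003.

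In complex I, several subunits of the electron path itself were lower, while the largest core subunit was higher. Ndufs8, which holds iron-sulfur clusters on the path to ubiquinone, read 11.95, 12.10 and 12.02 in Tconv, 11.15, 11.15 and 11.08 in purTGFβ_iTreg and 11.20, 11.21 and 11.10 in pltTGFβ_iTreg. The iTreg arrays overlapped one another and lay far below Tconv. Ndufs8 was 1.86-fold lower with purified TGFβ (log2 change -0.90 ± 0.08, SE, adjusted p = 2.03e-06) and 1.80-fold lower with platelet TGFβ (-0.85 ± 0.08, adjusted p = 3.48e-06). Each of its 6 probe sets fell in both comparisons, by 0.65 to 0.92 and 0.67 to 0.89. Ndufv1, which binds NADH and the flavin that accepts its electrons, read 10.84, 11.02 and 11.04 in Tconv, 10.32, 10.44 and 10.43 with purified and 10.25, 10.26 and 10.21 with platelet TGFβ. No iTreg array reached Tconv, and Ndufv1 fell by 0.58 ± 0.08 and 0.73 ± 0.08 (adjusted p = 0.000131 and 2.11e-05). Ndufs7, which carries the last iron-sulfur cluster, fell by 0.62 with purified TGFβ and changed by -0.48 with platelet TGFβ, just inside the cutoff (adjusted p = 0.00038) and past it without replicate 2 of pltTGFβ_iTreg (-0.51) or with probe sets averaged (-0.52).

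Ndufs1, the largest core subunit with several iron-sulfur clusters, moved the other way. It read 9.65, 9.49 and 9.41 in Tconv, 10.10, 10.03 and 10.05 with purified TGFβ and 10.15, 10.15 and 10.08 with platelet TGFβ. The Tconv arrays lay below all others, and Ndufs1 rose by 0.54 ± 0.08 and 0.61 ± 0.08 (adjusted p = 0.000224 and 9.03e-05). The rise with purified TGFβ missed the fold cutoff under quantile normalization (0.48) and without Tconv replicate 3 (0.49). The other core subunits among the members, Ndufs3 and Ndufv2, changed by -0.06 and -0.07 with purified TGFβ and by -0.17 and -0.23 with platelet TGFβ, and neither was called. In all, the catalytic and cofactor-bearing subunits of the complexes (14 members) had 1 rise and 4 falls with purified and 1 and 3 with platelet TGFβ, and the 67 other members had 2 and 11, and 2 and 13. Calls covered 35.7% and 28.6% of the 14 and 19.4% and 22.4% of the 67, against 29.3% and 28.5% of all genes.

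Among the accessory subunits of complex I, which surround the core and aid its stability, Ndufa7 and Ndufb9 fell most. Ndufa7 read 11.76 to 11.94 in Tconv, 11.06 to 11.18 in purTGFβ_iTreg and 10.96 to 11.03 in pltTGFβ_iTreg, with no overlap of the iTreg groups with Tconv. It fell by 0.70 and 0.83 (SE 0.08, adjusted p = 2.02e-05 and 5.35e-06), and Ndufb9 by 0.63 and 0.67 (adjusted p = 4.56e-05 and 2.75e-05). With probe sets averaged Ndufb9 came to -0.50 and -0.47 and was not called, where 1 of them averaged 4.69, beside 11.35 for the probe set used. Ndufb1, a small membrane subunit, read 7.89, 7.94 and 7.79 in Tconv, 8.51, 8.54 and 8.49 with purified and 8.70, 8.64 and 8.58 with platelet TGFβ. Both iTreg groups lay above Tconv, and Ndufb1 rose by 0.64 and 0.77 (SE 0.08, adjusted p = 3.09e-05 and 7.64e-06), or by 0.45 with purified TGFβ under quantile normalization, short of the cutoff. Ndufb8 fell by 0.53 and 0.61, but its dimmer probe set was called higher at 0.64 and 0.68. It was the only member with probe sets called in opposite directions. Its change with purified TGFβ was -0.50, at the cutoff, without replicate 1 of purTGFβ_iTreg, and -0.47 with array medians centred.

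Complex II, which also works in the citric acid cycle, had 1 call in each comparison, its membrane anchor Sdhc. The gene read 10.18, 10.22 and 10.24 in Tconv, 9.38, 9.70 and 9.59 with purified and 9.46, 9.53 and 9.22 with platelet TGFβ. The iTreg groups overlapped each other and not Tconv. Sdhc fell by 0.66 ± 0.11 and 0.81 ± 0.11 (adjusted p = 0.000337 and 6.95e-05), and its cross-hybridising probe set by 0.60 and 0.64. Sdhb, the iron-sulfur subunit, changed by -0.45 and -0.37 (adjusted p = 0.000914 and 0.00368), which missed the fold cutoff, except without Tconv replicate 1 (-0.52 with purified TGFβ). Sdha, the flavoprotein that oxidises succinate, changed by -0.06 (95% interval -0.23 to 0.10) and -0.09 (-0.26 to 0.07), and Sdhd, the other anchor, by -0.12 (-0.29 to 0.05) and -0.04 (-0.21 to 0.13). The cross-hybridising probe set of Sdhd (8.17 on average, beside 10.56) differed, at -0.49 ± 0.24 and -0.66 ± 0.24. It was called lower with platelet TGFβ (adjusted p = 0.0401), though its arrays overlapped Tconv.

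Complex III had its falls in Uqcrq, Uqcrc1 and Uqcr10. Uqcrq, a small membrane subunit, read 11.79, 11.87 and 11.97 in Tconv, 10.99, 11.02 and 11.10 with purified TGFβ and 10.98, 10.98 and 10.84 with platelet TGFβ. All iTreg arrays lay well below Tconv, and Uqcrq was 1.79-fold and 1.92-fold lower (log2 changes -0.84 and -0.94, SE 0.08, adjusted p = 6.34e-06 and 2.66e-06). The average of its probe sets changed by -0.46 with purified TGFβ, short of the cutoff, where the other probe sets averaged 4.25 to 4.65, beside 11.28. Uqcrc1, a large core protein facing the matrix, read 11.80, 12.04 and 12.14 in Tconv, 11.05, 11.29 and 11.15 with purified and 11.21, 11.22 and 11.29 with platelet TGFβ. Its groups did not overlap with Tconv either, and it fell by 0.83 ± 0.10 and 0.75 ± 0.10 (adjusted p = 3.7e-05 and 8.58e-05). Uqcr10 fell by 0.55 and 0.54. Both calls were lost with array medians centred (-0.49 and -0.48) and with its probe sets averaged (-0.48 and -0.44), and the change with platelet TGFβ came to -0.50, at the cutoff, without Tconv replicate 3 or without pltTGFβ_iTreg replicate 3. The other probe sets of Uqcr10 averaged 4.22 and 5.38, beside 11.15. Uqcrfs1, the Rieske iron-sulfur protein that carries electrons toward cytochrome c1, changed by 0.00 (95% interval -0.16 to 0.16) and -0.02 (-0.18 to 0.14). Uqcrb, which helps bind ubiquinone, was on the other side at 0.32 and 0.37 without reaching the cutoff.

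In complex IV, the widest falls were in tissue isoforms. Cox6a2, the heart and muscle form of subunit VIa, read 6.31, 6.36 and 6.44 in Tconv, 5.22, 5.41 and 5.34 with purified and 5.41, 5.37 and 5.48 with platelet TGFβ, so Tconv stood apart from both overlapping iTreg groups. It was 2.06-fold and 1.93-fold lower (log2 changes -1.04 and -0.95, SE 0.08, adjusted p = 8.86e-07 and 2.19e-06). Its ubiquitous partner Cox6a1 changed by -0.12 and -0.17 and was not called. Cox6b2, the testis form of subunit VIb, was 2.10-fold and 1.94-fold lower (-1.07 and -0.95, SE 0.10, adjusted p = 4.28e-06 and 1.24e-05), while its partner Cox6b1 changed by -0.19 and -0.22 without a call. Markers of heart and skeletal muscle (8 of 8 measured) averaged 4.24 to 4.36 on the Tconv arrays and 3.81 to 4.05 on the iTreg arrays, and 1 of them was called lower in each comparison, Actc1 (-0.55) with purified TGFβ and Myh7 (-0.51) with platelet TGFβ. Their part in the fall of Cox6a2 was not tested. With no detection calls in the deposited table, whether such low readings lie above background is not known.

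Of the other alternative forms, Cox4i2, Cox7a1, Cox8b, Cox8c, Cox7b2 and Ndufa4l2 were not called. Cox7a2l was called lower with platelet TGFβ and the c-ring gene Atp5g2 lower in both comparisons, as given below. Cox4i1, the common form of subunit IV, changed by -0.30 and -0.42 and Cox4i2, its oxygen-responsive form, by -0.25 and -0.36. Cox7a2 changed by -0.10 and -0.12 and its muscle form Cox7a1 by 0.06 and -0.35. Cox8b and Cox8c changed by -0.42 each with purified TGFβ and by -0.41 and -0.35 with platelet TGFβ, and Cox8a by -0.46 and, called lower, by -0.59 (adjusted p = 4.1e-05), or -0.44 and no call with probe sets averaged. Cox8b passed the cutoffs with purified TGFβ without replicate 2 of purTGFβ_iTreg (-0.54). Cox7b2 read 2.56 on average, below the brightness of the dimmest 40% (3.93), and changed by 0.11 and 0.24. Ndufa4l2, the hypoxia-induced relative of Ndufa4, changed by -0.32 and -0.34, and Ndufa4 by 0.18 in both. Under quantile normalization Cox8c (-0.67 and -0.57) and Ndufa4l2 (-0.52 in both) passed the cutoffs in both comparisons and Cox4i2 (-0.50) with platelet TGFβ.

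**Figure D3:**
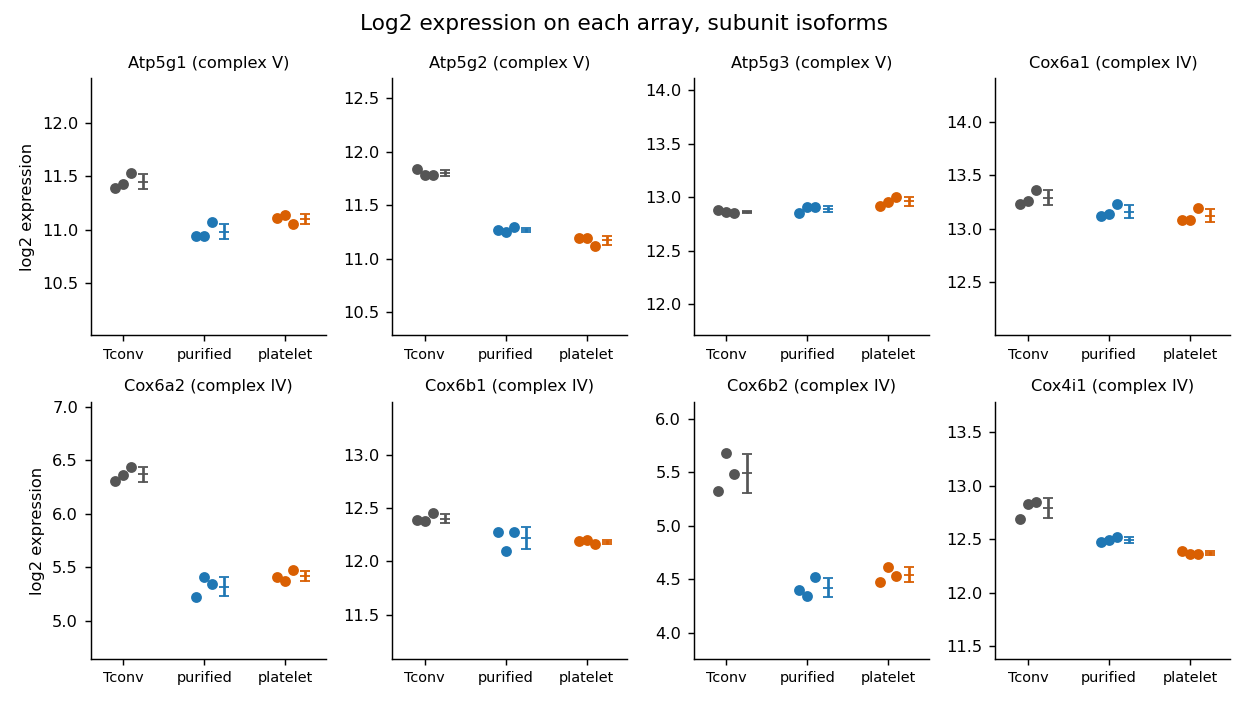
Log2 expression on each of the 9 arrays for the c-ring genes of ATP synthase (Atp5g1 to Atp5g3) and 5 complex IV isoforms (points are arrays; bars show the group mean and SD, n = 3; panels span the same log2 range). Cox6a2 and Cox6b2 stand apart in Tconv, while the changes of Cox6a1, Cox6b1 and Atp5g3 from Tconv run from -0.22 to 0.09.

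Cox7c, a small widely expressed subunit, had the largest rise of any member. It read 4.90, 4.79 and 4.86 in Tconv, 6.11, 5.51 and 5.83 with purified TGFβ and 6.19, 6.06 and 6.52 with platelet TGFβ. Tconv was lowest with little spread, and the iTreg groups overlapped slightly. Cox7c rose 1.96-fold (log2 change 0.97 ± 0.15, adjusted p = 0.000248) and 2.65-fold (1.41 ± 0.15, adjusted p = 1.31e-05), and its other, dimmer probe set rose by 1.01 and 1.16. Both probe sets read low, at 5.64 and 3.74 on average, where Cox6c and Cox7a2 averaged 12.01 and 12.83. Whether they lie above background, or follow the main Cox7c transcript, is not known. Between the iTreg groups Cox7c differed by 0.44 (95% interval 0.11 to 0.77, adjusted p = 0.153), and by 0.58, a call, without replicate 1 of purTGFβ_iTreg (adjusted p = 0.0539).

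Complex V had a single call in each comparison, in 1 of the 3 genes that encode the same mature c-ring subunit. Atp5g2 read 11.84, 11.78 and 11.78 in Tconv, 11.27, 11.25 and 11.30 with purified TGFβ and 11.19, 11.19 and 11.12 with platelet TGFβ. The groups did not overlap, and Atp5g2 fell by 0.53 ± 0.07 and 0.64 ± 0.07 (adjusted p = 8.45e-05 and 1.98e-05). With array medians centred the change with purified TGFβ was -0.47, short of the cutoff. Averaging the gene's probe sets ended both calls, at -0.18 (adjusted p = 0.0538) and -0.21 (adjusted p = 0.0309). The other probe sets of Atp5g2 were dim, at 2.43 and 3.43 on average, beside 11.41. Atp5g1 changed by -0.47 and -0.35 (adjusted p = 0.000461 and 0.00338), past the cutoff only without replicate 3 of purTGFβ_iTreg (-0.51). Atp5g3 changed by 0.03 (95% interval -0.13 to 0.18) and 0.09 (-0.06 to 0.25). The catalytic head subunits differed little: Atp5b by -0.23 in both comparisons, Atp5a1 by -0.17 and -0.14, and Atp5c1, the rotating shaft, by -0.25 and -0.23.

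**Figure D4:**
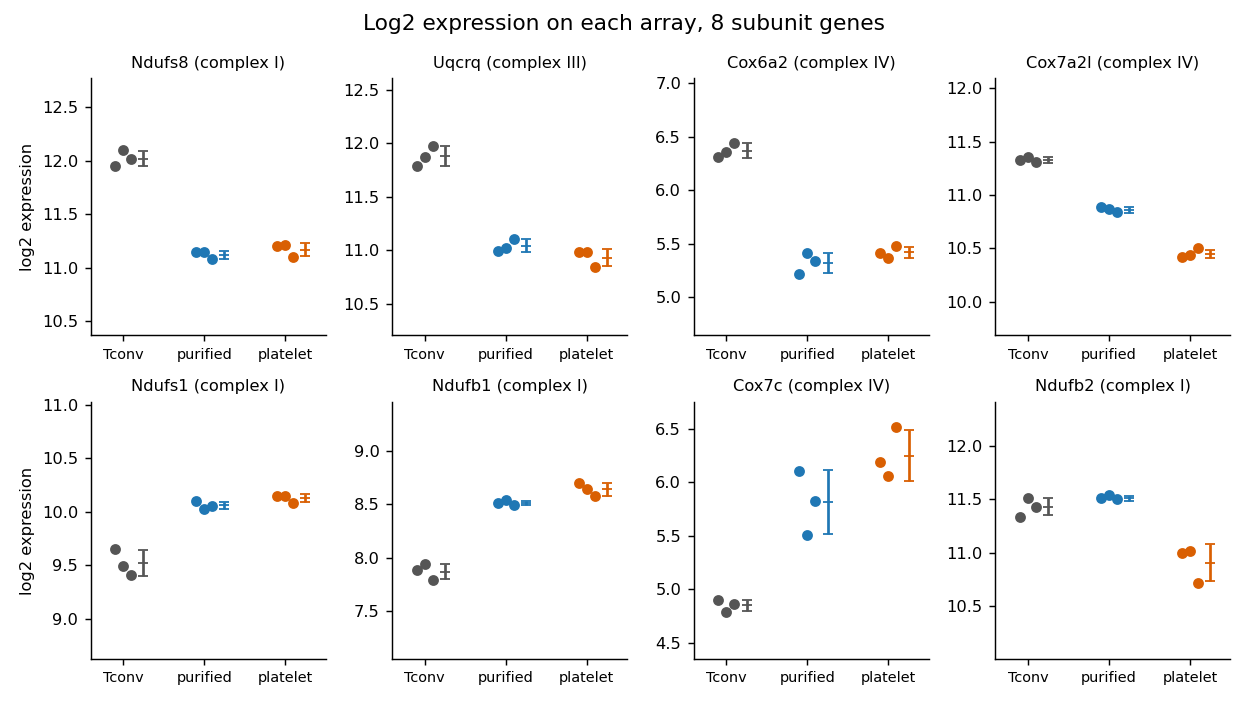
Log2 expression on each of the 9 arrays for 8 subunit genes picked after their values were seen (points are arrays; bars show the group mean and SD, n = 3; panels span the same log2 range). Ndufs8, Uqcrq and Cox6a2 are lower in both iTreg groups, Ndufs1, Ndufb1 and Cox7c higher, Cox7a2l steps down from Tconv through purified to platelet TGFβ, and Ndufb2 is low only in the platelet-TGFβ arrays.

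The comparison of the iTreg groups asked how these subunits differ between cultures with freeze-thawed platelets and with purified TGFβ. The labels give no TGFβ1 dose for the platelet group. The source of TGFβ therefore cannot be told apart from its dose or from other platelet contents. This comparison gave 1 call among the 81 members, Ndufb2, or 1.23% against 4.11% of all genes (1.54% higher and 2.57% lower). At an adjusted p under 0.05 with no fold cutoff 2 were lower and 0 higher (4.30% and 3.03% of all genes), and with a log2 difference above 1 none was called (0.539% lower and 0.390% higher of all genes). The median member differed by -0.04 (all genes 0.01) and the median absolute difference was 0.08 (all genes 0.10). For 77 of the 81 members the 95% interval of the difference lay within 0.5 on either side, so differences larger than the cutoff lay outside their intervals. The members outside that range were Ndufb2, Cox7a1, Cox7a2l and Cox7c. No complex had a median beyond -0.06 (complex V) or 0.03 (complex II).

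Ndufb2, an accessory subunit of the complex I membrane arm, read 11.34, 11.51 and 11.43 in Tconv, 11.51, 11.54 and 11.50 with purified TGFβ and 11.00, 11.02 and 10.72 with platelet TGFβ. The platelet-TGFβ arrays lay below the other 6, which overlapped. Ndufb2 was 1.52-fold lower with platelet than with purified TGFβ (log2 difference -0.60 ± 0.09, adjusted p = 0.00264). Another, cross-hybridising probe set fell by 0.55 and the remaining, dim one (5.02 on average, beside 11.29) differed by -0.01, so the average of its probe sets (-0.39, adjusted p = 0.00671) missed the fold cutoff. Against Tconv Ndufb2 fell by 0.51 with platelet TGFβ, which missed the cutoff without Tconv replicate 2 (-0.47) or pltTGFβ_iTreg replicate 3 (-0.42), with array medians centred (-0.46) and with probe sets averaged (-0.43), and changed by 0.09 with purified TGFβ.

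Cox7a2l, which helps join complexes III and IV into supercomplexes and is known in C57BL/6 mice in a shortened form, read 11.33, 11.36 and 11.31 in Tconv, 10.89, 10.87 and 10.84 with purified TGFβ and 10.42, 10.44 and 10.50 with platelet TGFβ. The 3 groups were fully separate, with platelet TGFβ lowest. Against Tconv it changed by -0.47 ± 0.07 with purified TGFβ, which was not called, and fell by 0.88 ± 0.07 with platelet TGFβ (adjusted p = 1.39e-06). The iTreg groups differed by -0.41 ± 0.07 (adjusted p = 0.00502), a difference that passed the p cutoff and not that of size, and its 3 probe sets gave -0.41, -0.39 and -0.40.

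Promoters are shown for 4 members, picked after their values were seen: Ndufs8, Uqcrc1 and Atp5g2, called lower in both comparisons, and Cox7c, called higher in both. The RefSeq table (GRCm38.p6) held 71 promoters for 66 of the 81 members and 32851 in all, each of 300 bases around a gene's start, and all 81 members were found by gene identifier in the RefSeq gene table. Searched on both strands were the core letters of motifs bound by factors known for respiratory genes: GCATGCG for NRF1, CCGGAAG for ETS factors such as GABP, and AAGATGG for YY1. GCATGCG and its reverse complement overlap by all but 1 letter, and CCGGAAG and AAGATGG can share 3 letters. GCATGCG stood in 14.1% of the members' promoters and 3.58% of all promoters, CCGGAAG in 23.9% and 8.86%, and AAGATGG in 14.1% and 6.34%. At least 1 of these stood in the promoter of 4 of the 8 members lower in both comparisons that had one, 1 of the 2 higher in both and 21 of the 49 called in neither. The 4 shown all hold a match, while Ndufa7, Ndufv1, Uqcr10, Cox6b2 and Ndufb1, also called in both comparisons, hold none. Capitals mark the match, and each line runs 5′ to 3′ on the gene's strand.
Ndufs8 (chr19:3912725-3913024, minus strand): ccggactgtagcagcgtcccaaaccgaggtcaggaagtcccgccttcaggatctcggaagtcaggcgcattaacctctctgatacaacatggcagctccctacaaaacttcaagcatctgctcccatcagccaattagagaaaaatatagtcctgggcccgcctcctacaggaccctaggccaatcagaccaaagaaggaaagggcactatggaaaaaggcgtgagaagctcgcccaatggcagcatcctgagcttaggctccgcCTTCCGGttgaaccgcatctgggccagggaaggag
Uqcrc1 (chr9:108936398-108936697, plus strand): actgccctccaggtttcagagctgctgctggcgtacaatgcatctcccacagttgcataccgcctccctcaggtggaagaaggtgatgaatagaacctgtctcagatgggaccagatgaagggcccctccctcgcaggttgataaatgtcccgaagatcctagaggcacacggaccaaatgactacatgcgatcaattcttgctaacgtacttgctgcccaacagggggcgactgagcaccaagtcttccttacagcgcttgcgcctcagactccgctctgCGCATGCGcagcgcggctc
Atp5g2 (chr15:102670998-102671297, minus strand): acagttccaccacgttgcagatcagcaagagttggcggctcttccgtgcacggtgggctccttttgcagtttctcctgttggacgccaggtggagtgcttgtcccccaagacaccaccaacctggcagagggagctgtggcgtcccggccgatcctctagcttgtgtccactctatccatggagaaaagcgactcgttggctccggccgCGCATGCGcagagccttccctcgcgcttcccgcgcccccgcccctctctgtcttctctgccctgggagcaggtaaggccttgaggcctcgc
Cox7c (chr13:86046746-86047045, minus strand): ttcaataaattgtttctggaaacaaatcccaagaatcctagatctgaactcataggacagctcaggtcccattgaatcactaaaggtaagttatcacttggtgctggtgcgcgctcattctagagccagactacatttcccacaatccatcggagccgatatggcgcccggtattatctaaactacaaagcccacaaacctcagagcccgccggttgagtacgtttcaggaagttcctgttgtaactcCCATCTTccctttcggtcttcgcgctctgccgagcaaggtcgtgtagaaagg
In Uqcrc1 and Atp5g2 the same 8 letters hold GCATGCG on both strands, starting at bases 282 and 210 of the window. In Ndufs8 the ETS core lies on the opposite strand from base 266, and in Cox7c the YY1 core does so from base 249. A match describes letters and says nothing of binding in these cells.

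Related genes were counted with the same cutoffs, in lists written from general knowledge, and differences from the subunits or from all genes were not tested. Of all genes 29.3% and 28.5% were called with purified and platelet TGFβ, and of the brighter genes 40.5% and 39.5%. Of 13 mitochondrially encoded subunits, searched by symbols with the prefix mt-, 1 was matched to a named probe set. This was ND5, a proton-pumping membrane subunit of complex I, matched by its name without the prefix. The others were not searched without the prefix, so whether the arrays hold them under such names is not known. ND5 read 9.92, 9.87 and 9.94 in Tconv, 11.39, 10.99 and 11.12 with purified TGFβ and 11.43, 11.41 and 11.17 with platelet TGFβ. Every iTreg array lay above Tconv, and ND5 rose 2.40-fold and 2.69-fold (log2 changes 1.26 and 1.42, SE 0.11).

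Of 76 mitochondrial ribosomal protein genes, which build the ribosome that translates such transcripts, 1 rose and 29 fell with purified TGFβ and 2 and 23 with platelet TGFβ. Calls covered 39.5% and 32.9% of these genes, against 40.5% and 39.5% of the brighter genes. Of those 12686 brighter genes, 2583 rose and 2551 fell with purified TGFβ, and 2479 and 2529 with platelet TGFβ. The median changes of the ribosomal protein genes were -0.44 and -0.34, with Mrps10 at -1.24 and -1.09. Assembly factors of the complexes (42 of 43 measured) had 3 rises and 14 falls, and 3 and 10, or calls for 40.5% and 31.0% of them. Among them Ndufaf6, needed to build complex I, fell by 1.15 and 0.95, Ecsit by 1.17 and 0.98, and Uqcc2, which assists complex III, by 1.10 and 0.84. Bcs1l, which inserts the Rieske protein into complex III, fell by 1.07 and 1.17. Ndufaf4, another complex I factor, rose by 0.51 and 1.06, and it was the only one of them called between the iTreg groups (0.56 higher with platelet TGFβ, adjusted p = 0.00625).

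Electron carriers and related genes (18 of 21 measured) had 1 rise and 7 falls, and 0 and 7, or calls for 44.4% and 38.9%. They included Etfb, an electron transfer flavoprotein, at -0.93 in both, and the ubiquinone synthesis genes Coq5 (-1.06 and -0.72) and Coq3 (-0.78 and -0.67). Cycs, which encodes cytochrome c, changed by -0.14 and -0.06 and was not called, nor was Ndufab1, the acyl carrier of complex I (-0.37 and -0.30). Citric acid cycle genes (15 of 16) had 3 rises and 5 falls, and 2 and 5, or calls for 53.3% and 46.7%. Idh2, an NADP-dependent isocitrate dehydrogenase, fell by 1.49 and 1.53, and Suclg1 by 0.76 and 0.77, while Sucla2, a subunit of succinyl-CoA ligase, rose by 0.96 and 1.09. Glycolysis genes (19 of 22) had no rise and 9 falls in each, or calls for 47.4%. Ldhb fell by 1.67 and 1.54, the glucose transporter gene Slc2a3 changed by -1.88 and -1.41, and Hk2 was 0.68 higher with platelet than with purified TGFβ.

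Regulators of respiratory genes went both ways, with 2 rises and 6 falls among 15 with purified and 2 and 7 with platelet TGFβ, or calls for 53.3% and 60.0%. The GABP subunits moved apart: Gabpa, the DNA-binding one, read 7.32 to 7.47 in Tconv, 8.77 to 9.01 with purified and 8.73 to 8.97 with platelet TGFβ, and Gabpb1, its activating partner, 9.03 to 9.08, 7.84 to 7.91 and 8.16 to 8.24. Neither gene's iTreg arrays overlapped Tconv, and Gabpa rose by 1.51 and 1.46 while Gabpb1 fell by 1.17 and 0.85. Tfb2m, which starts transcription of mitochondrial DNA, rose by 1.11 and 1.31. Ppargc1b, a coactivator of mitochondrial biogenesis, fell by 0.69 and 0.66. Its relative Ppargc1a (-0.36 and -0.35), the mitochondrial DNA packaging factor gene Tfam (0.44 and 0.43) and Myc (0.27 and 0.37) were not called.

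**Figure D5:**
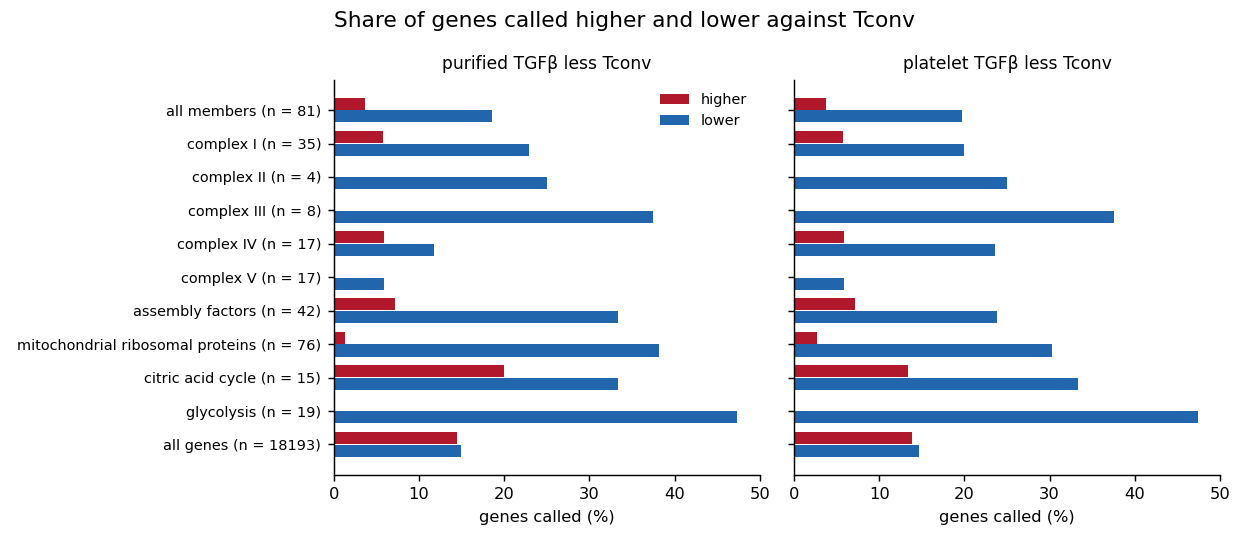
Percentage of genes called higher (red) and lower (blue) against Tconv in each iTreg group, for the subunit genes, their complexes, 4 related lists and all genes. All 81 members together show few rises (3 in each panel) beside 15 and 16 falls, while all genes are split at 14.9% lower to 14.5% higher and 14.7% to 13.9%; the related lists show more falls than rises.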

How the data were processed

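The authors deposited 1 table of log2 expression values for 45101 probe sets on 9 arrays. Per the series' design text, they ran Affymetrix Expression Console with RMA (robust multichip analysis) on the scans and used Partek Genomics Suite 6.6 for ANOVA and false discovery rates. RMA compresses values near background, so folds of dim genes are understated. The table holds no detection calls, and the number of arrays limits the precision.

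After 64 control probe sets were removed, 45037 remained for testing. Of these, 34945 had 1 symbol, 932 several and 9160 none in the platform annotation. Differences were contrasts of 1 limma model (limma 3.58.1, R 4.3.3) with a mean per group over all 9 arrays, tested two-sided with Benjamini-Hochberg adjustment over all probe sets. Intervals are 95% intervals. With 3 arrays a side, an exact permutation test could not have reached a p under 0.1. Tables and plots used Python 3.11.15, pandas 2.3.3 and matplotlib 3.10.9.

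The model was tested on simulated data, where 200 of 45037 probe sets carried a known change, and recovered changes of 0.6 on the log2 scale in 80.6%, 82.5% and 78.5% of cases for purified TGFβ against Tconv, platelet TGFβ against Tconv and platelet against purified TGFβ. There were 10, 12 and 13 false calls. In the real data a larger share was called against Tconv (29.3% and 28.5% of genes), so these rates need not hold there.

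The members and lists were chosen with earlier results of these data known. Named were, per complex and comparison, the 3 largest called rises and falls, the catalytic and cofactor-bearing subunits, the isoform pairs and the X-linked members. From other lists, up to 3 called genes with the lowest adjusted p and Cycs, Tfam, Ppargc1a, Ppargc1b, Myc and Ndufab1 were named. Other names, the match of ND5 to the list's mitochondrial symbol, the promoters shown and the genes plotted were chosen after their values were seen.

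Each result was also computed after quantile normalization or median centring of the arrays, without dim probe sets, with intensity-dependent robust variances, with unmoderated variances, on the compared groups alone, with the replicate number as a block, from the average of all probe sets of a gene, with other cutoffs and without each array.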

Additional observations from a re-analysis of the deposited data

How the results depend on the processing

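Leaving out the dimmest 40% of probe sets, intensity-dependent robust variances, unmoderated variances, a fit on the groups compared and the replicate block each left every count of members called as it was. With the block the counts lower were 15, 16 and 1 for purified TGFβ against Tconv, platelet TGFβ against Tconv and platelet against purified TGFβ. Deviations of arrays with the same replicate number correlated at -0.12 to 0.26 across groups, so the numbers were not shown to pair samples. Quantile normalization left 1 rise and 16 falls with purified TGFβ and gave 3 and 21 with platelet TGFβ. Averaging all probe sets of a gene left 9 falls with purified TGFβ and 0 between the iTreg groups, and turned Ndufb8 to 0.05 and 0.03 (adjusted p = 0.514 and 0.725), because its dimmer probe set enters that mean. Dim probe sets also enter the means of Ndufb2, Ndufb9, Uqcr10, Uqcrq, Cox8a (4.60 beside 11.75) and Atp5g2. At an adjusted p under 0.05 with no fold cutoff, rises and falls were 7 and 39, 6 and 46, and 0 and 2. At an absolute log2 change above 1 they were 0 and 2, 1 and 0, and 0 and 0. With each array left out, rises ranged from 2 to 3, 3 to 3 and 0 to 1 and falls from 14 to 17, 14 to 19 and 1 to 1.

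Medians kept their sign against Tconv under every alternative run. With centred array medians they were -0.15 for all members and -0.15, -0.23, -0.25, -0.19 and -0.11 for complexes I to V with purified TGFβ, and -0.19, and -0.26, -0.17, -0.29, -0.29 and -0.17 with platelet TGFβ, where all genes stood at -0.11 and -0.10. Quantile normalization gave -0.14 for complex V with purified TGFβ, and -0.27 for complex IV and -0.20 for complex V with platelet TGFβ. Averaging all probe sets of a gene gave -0.38 for complex II and -0.08 for complex V with purified TGFβ. With platelet TGFβ it gave -0.28 for all members, -0.36 for complex II and -0.18 for complex V, and between the iTreg groups -0.07 for complex II. With each array left out, the medians of all members and of complexes I to V ranged from -0.23 to -0.18, -0.24 to -0.17, -0.31 to -0.26, -0.34 to -0.28, -0.27 to -0.20 and -0.20 to -0.15 with purified TGFβ. With platelet TGFβ the ranges were -0.28 to -0.25, -0.35 to -0.27, -0.25 to -0.20, -0.36 to -0.33, -0.33 to -0.27 and -0.23 to -0.21, and between the iTreg groups -0.04 to -0.02, -0.06 to -0.02, 0.01 to 0.05, -0.03 to 0.02, -0.04 to -0.02 and -0.09 to -0.05. Except for Ndufb8 and the other genes named above whose means hold dim probe sets, the cause of these moves was not tested.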
